A study of Arabidopsis thaliana with 15 samples.

Results

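The CHR genes of Arabidopsis thaliana encode remodellers of the SNF2 family, and 7 of them were followed here across 6 groups of shoot apex samples. They are the probe sets with 1 gene whose symbol in the platform's probe table is CHR followed by a number, 7 of the 13513 probe sets with 1 gene and of 22810 probe sets in all. The members are CHR17 (AT5G18620), CHR18 (AT1G48310), CHR23 (AT5G19310), CHR24 (AT5G63950), CHR34 (AT2G21450), CHR40 (AT3G24340) and CHR42 (AT5G20420), each with 1 probe set. Locus names come from RefSeq gene records of assembly TAIR10.1, and no sequence of the genes or probes was used here.

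SNF2 proteins use ATP to slide, evict or exchange nucleosomes, or to move along DNA and displace what is bound there. In plants some of them work in transcription, some in DNA repair, and one branch in RNA-directed DNA methylation, in which small RNAs guide methylation to transposons and repeats. In the shoot apical meristem, which holds the stem cells of the shoot, SNF2 remodellers are known as regulators of stem cell maintenance genes.

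RNA of 24-day-old plants was hybridised to 15 Affymetrix arrays. CLV3p (3 arrays) and WUSp (2 arrays) are cell populations named after the stem cell peptide gene CLV3 and the homeobox gene WUS of the cells below them, FILp (3 arrays) is named after FIL, a gene of organ primordia, and CLV3n (3 arrays) is the population that the design text says lacks CLV3p cells. Protoplast Induced and Uninduced (2 arrays each) are not described further in the labels, and from what is known of the study they are taken as unsorted apex material with and without protoplast preparation. Genotype, reporter line, number of plants and the drivers of any reporter are not given in the labels, and neither is whether replicates came from separate sorts, so p-values measure only the spread between these arrays. All groups share the plant age, the RNA kit and the labelling protocol.

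Array medians ran from 155 to 199 signal units, and each array had been scaled to a trimmed mean of 500. CLV3, the only stem cell marker measured, had 569 to 1220 in CLV3p, 58.0 to 76.1 in WUSp, 1.83 to 6.02 in FILp and 6.73 to 12.2 in CLV3n. WUS and FIL themselves have no probe set with 1 gene, while the FIL relatives YAB3 and YAB5 summed to 790 to 932 in FILp, against 275 to 340 in CLV3n. The hybridisation control bioC set 5 arrays apart, CLV3p 3, CLV3n 3 and the 3 FILp arrays, with 216 to 313, against 643 to 1070 on the other 10 arrays. The low batch thus holds 1 array of CLV3p and 1 of CLV3n, so that values within it rest on single arrays of these groups. They are given as differences without p-values, while the closing counts of alternatives include such fits. The actin 3'/5' ratio was highest among sorted arrays on CLV3p 1 and CLV3n 1 (log2 3.78 and 4.20), against 2.14 to 2.98 on the others. In these bulk samples, fewer cells of a type and less RNA per cell cannot be told apart.

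Of the 7 members, 6 passed the filter on low signals in both fits. CHR34 did not, with 1 of 15 arrays above the 40th percentile, and it was not tested. Differences are log2 differences from limma with their standard errors, and a call means a Benjamini-Hochberg adjusted p under 0.05 over all tested probe sets.

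CLV3p cells had the highest mean signal of the 4 sorted populations for CHR40, CHR17, CHR24, CHR18 and CHR23, and CHR42 was the exception among tested members. The untested CHR34 had its lowest mean of the 4 in CLV3p (24.2, against 28.3 in WUSp, 32.8 in FILp and 58.0 in CLV3n). Its CLV3p arrays ran from 5.48 to 91.8. Against CLV3n, 3 of 6 tested members were called higher in CLV3p and none lower, where 4.88% of all 15052 tested probe sets were called higher, 8.95% lower and 13.8% in either direction. Against FILp, 4 of 6 were called higher and none lower, beside 10.5% higher, 12.2% lower and 22.6% in either direction among all tested probe sets. Against WUSp, 2 of 6 were called higher and none lower, beside 11.7% higher, 12.4% lower and 24% in either direction. The member medians of these 3 comparisons were 0.65, 0.91 and 0.35, beside medians of 0.02, 0.03 and 0.04 over all tested probe sets. The comparisons share the CLV3p arrays, so they are not independent.

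**Figure D1:**
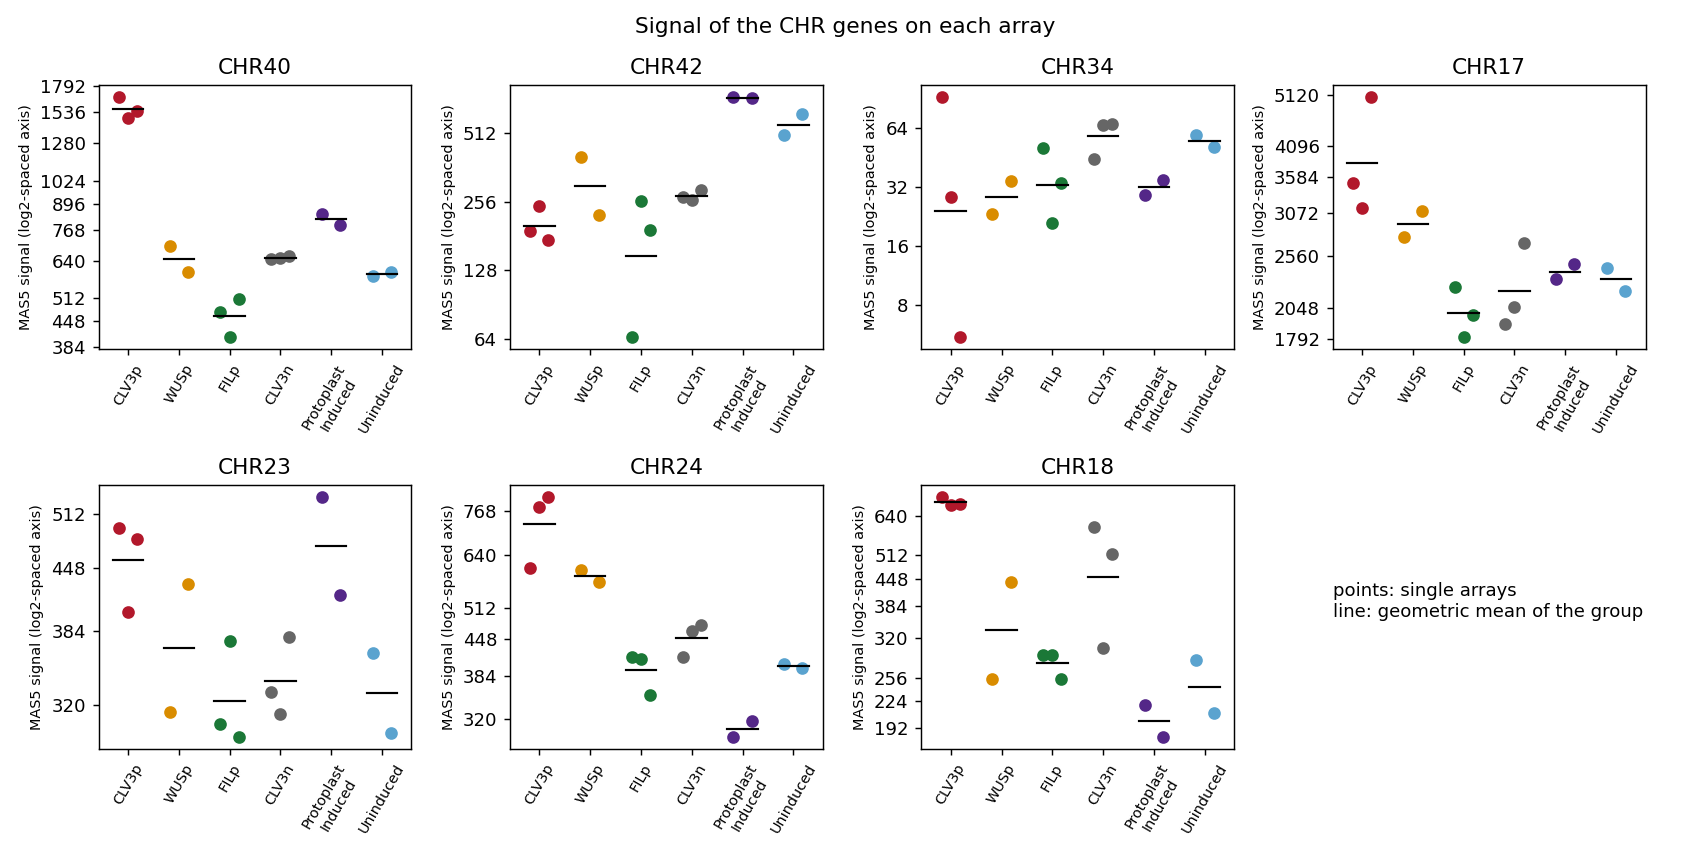
MAS5 signal of each CHR gene on each of the 15 arrays, on a log axis with its own range in every panel. Points are arrays and lines are geometric means of the groups. The 3 CLV3p arrays of CHR40 lie between 1490 and 1683, above the other 12 arrays, while the 4 arrays of unsorted material lie highest for CHR42.

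CHR40 is known as CLSY4, one of the CLASSY proteins that guide the plant-specific RNA polymerase IV to loci for RNA-directed DNA methylation. Its signals were 1683, 1490 and 1549 on the CLV3p arrays, against 645, 652 and 659 on the CLV3n arrays. The FILp arrays had 473, 407 and 509.9 and the WUSp arrays 697 and 599. The CLV3p arrays overlapped with none of these, and the CLV3n arrays lay closest together.

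CHR40 was called higher in CLV3p against each of the other sorted populations. The log2 difference was 1.27 ± 0.15 against CLV3n (SE, n = 3 and 3; adjusted p = 3.45e-05), a 2.41-fold difference. Against FILp it was 1.77 ± 0.15 (n = 3 and 3; adjusted p = 6.34e-07), or 3.41-fold. Against WUSp it was 1.28 ± 0.17 (n = 3 and 2; adjusted p = 7.43e-05), or 2.43-fold. These differences were larger in size than those of 92.1%, 94.0% and 88.8% of all tested probe sets. Within the batch of high bioC signal, with 2 arrays a group, the differences from CLV3n and WUSp were 1.29 and 1.29, both still called. In the low batch CLV3p 3 exceeded CLV3n 3 by 1.23 and the 3 FILp arrays by 1.75. With CLV3p 1 and CLV3n 1 left out, the differences from CLV3n, FILp and WUSp were 1.21, 1.72 and 1.23.

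Among the other sorted cells CHR40 was lowest in FILp. FILp and CLV3n arrays did not overlap, with a log2 difference of -0.50 ± 0.15 that was not called (adjusted p = 0.0848), and WUSp exceeded FILp by 0.49 ± 0.17 (adjusted p = 0.0729). WUSp and CLV3n differed by -0.01 ± 0.17 (adjusted p = 0.967), with a 95% interval of the difference from -0.38 to 0.35. In the fit of all 15 arrays both differences that involve FILp were called (adjusted p = 0.0353 for FILp against CLV3n and 0.0337 for WUSp against FILp), as were 6.69% and 18.1% of all probe sets.

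CHR40 was also the 1 member called in the protoplast pair. Its signals were 844 and 791 in Protoplast Induced samples, against 585 and 598 in Uninduced samples, and the groups did not overlap. The log2 difference was 0.47 ± 0.13 (n = 2 and 2; adjusted p = 0.0266), or 1.38-fold. Over the alternative runs it was 0.38 to 0.51. Runs without an array of this pair keep 1 array in a group, and no p-value is given for them. The call with all arrays ended with arrays centred on their medians (0.38; adjusted p = 0.0613). It also ended in the fit of all 15 arrays (adjusted p = 0.135), with no filter (0.054) and with plain eBayes (0.0601).

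Over all 6 groups the order of CHR40 was CLV3p, Protoplast Induced, CLV3n, WUSp, Uninduced and FILp. In the fit of all 15 arrays CLV3p exceeded the next group, Protoplast Induced, by 0.94 ± 0.15 (adjusted p = 9.67e-05), and 44.8% of all probe sets were called for that pair. Against Uninduced the difference of CLV3p was 1.41 ± 0.15 (adjusted p = 1.2e-06), where 40.4% were called. No later neighbours in the order differed past the threshold (adjusted p from 0.0956 to 0.96). Sorted and unsorted samples differ in preparation as well as in cells, which cannot be told apart.

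CHR42, known as CLSY2, belongs to the same CLASSY group as CHR40, and its pattern was another one. Its signals were 190, 246 and 173 in CLV3p, 405 and 225 in WUSp, 64.9, 257 and 192 in FILp and 269, 260 and 289 in CLV3n. FILp 1 was the lowest sorted array and WUSp 1 the highest, and CLV3p lay below CLV3n without overlap. limma called none of its 6 comparisons of sorted cells, 2 of which had an unadjusted p under 0.05, and the difference of CLV3p from CLV3n was -0.44 ± 0.40 (adjusted p = 0.527), with a 95% interval from -1.30 to 0.42. Against FILp it was 0.45 ± 0.40 (adjusted p = 0.475), and without FILp 1 it was -0.15.

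CHR42 was highest in the unsorted material, with 741 and 731 in Protoplast Induced and 501 and 626 in Uninduced, all above the 11 sorted arrays, whose highest value was 405. In the fit of all 15 arrays CLV3p lay below Uninduced by a log2 difference of -1.48 ± 0.42 (adjusted p = 0.0105), where 40.4% of all probe sets were called. FILp lay below Uninduced by one of -1.93 ± 0.42 (adjusted p = 0.0033), where 24.8% were called. CLV3n and WUSp had differences from Uninduced of -1.04 ± 0.42 and -0.89 ± 0.46, which were not called (adjusted p = 0.0774 and 0.179), while 27.2% and 25.4% of all probe sets were. Against Protoplast Induced all 4 sorted populations were called lower, at -1.87 ± 0.42 for CLV3p, -1.29 ± 0.46 for WUSp, -2.32 ± 0.42 for FILp and -1.43 ± 0.42 for CLV3n (adjusted p = 0.00201, 0.0423, 0.000648 and 0.0159). For these 4 pairs 44.8%, 32.8%, 35.4% and 34% of all probe sets were called. Between Protoplast Induced and Uninduced, CHR42 had 0.39 ± 0.15 in the fit of that pair (adjusted p = 0.0792). Without Uninduced 2, with a single Uninduced array left, it had 0.55. Without FILp 2 the difference of WUSp from FILp was called, at 1.43 against 1.03 ± 0.45 with all arrays (adjusted p = 0.0393 and 0.148).

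CHR34 is a further SNF2 gene of the branch that holds the CLASSY genes and DRD1, a remodeller of RNA-directed DNA methylation. Its signals were 91.8, 28.3 and 5.48 in CLV3p, 23.3 and 34.4 in WUSp, 50.7, 20.8 and 33.5 in FILp and 44.1, 65.9 and 67.1 in CLV3n. Protoplast Induced had 29.2 and 34.8, and Uninduced had 58.5 and 51.1. The CLV3p arrays spanned the whole range of the gene, and most signals lay in the lower part of their arrays (percentiles 11.6 to 42.1).

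CHR17 encodes an ISWI-type remodeller, an ATPase that spaces nucleosomes and acts with its close relative CHR11. Its signals were 3497, 3137 and 5066 in CLV3p, 2770 and 3097 in WUSp, 2240, 1803 and 1983 in FILp, and 1911, 2054 and 2708 in CLV3n. Every CLV3p array lay above every array of the other sorted populations, with CLV3p 3 far above the other CLV3p arrays and CLV3n 3 the highest of its group. Both of these arrays belong to the low bioC batch.

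The log2 difference of CHR17 was 0.80 ± 0.19 for CLV3p against CLV3n (adjusted p = 0.0104) and 0.93 ± 0.19 against FILp (adjusted p = 0.00217), which are 1.74-fold and 1.91-fold differences. The difference from CLV3n was 0.74 within the high batch and still called (adjusted p = 0.0343), and CLV3p 3 exceeded CLV3n 3 in the low batch by 0.90. Without CLV3p 3 the difference from CLV3n was 0.59 and the call ended (adjusted p = 0.0549). CLV3p 3 exceeded the FILp arrays by 1.34, and with the batch as a block the difference from FILp was 1.29.

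CLV3p exceeded WUSp in CHR17 by 0.38 ± 0.21, which was not called (adjusted p = 0.214), and this was 0.18 within the high batch. WUSp had more than FILp by 0.55 ± 0.21 (adjusted p = 0.101) and more than CLV3n by 0.41 ± 0.21 (adjusted p = 0.187). With the bioC batch as a block these were 1.08 and 0.59 and were called (adjusted p = 0.00359 and 0.0152). WUSp and FILp share no batch, so the block ties them only through the CLV3p and CLV3n arrays. In unsorted material CHR17 had 2320 and 2466 in Protoplast Induced and 2431 and 2201 in Uninduced, overlapping values with a log2 difference of 0.05 ± 0.11 (adjusted p = 0.792). In the order CLV3p, WUSp, Protoplast Induced, Uninduced, CLV3n and FILp no neighbours differed past the threshold (adjusted p from 0.16 to 0.949). With all 15 arrays in the fit, CLV3p exceeded Protoplast Induced by 0.67 ± 0.20 and Uninduced by 0.72 ± 0.20 (adjusted p = 0.0101 and 0.00727). For these pairs 44.8% and 40.4% of all probe sets were called. The other sorted populations differed from neither unsorted group past the threshold.

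CHR23, known as MINU2, encodes a SWI/SNF-type ATPase that acts in meristem maintenance with its relative CHR12. Its signals were 494, 402 and 481 in CLV3p, 315 and 430 in WUSp, 305, 374 and 296 in FILp and 329.9, 313 and 378 in CLV3n. The CLV3p arrays lay above those of CLV3n and FILp and overlapped with those of WUSp. The differences of CLV3p from CLV3n, FILp and WUSp were 0.43 ± 0.19, 0.50 ± 0.19 and 0.31 ± 0.21, and none was called (adjusted p = 0.154, 0.0701 and 0.31). With each array centred on its median, the first became 0.60 and was called (adjusted p = 0.0409), and so was the second at 0.57 (0.0404). The second was also called in the fit of all 15 arrays (adjusted p = 0.0498), where 26% of all probe sets were. In Protoplast Induced samples CHR23 had 534 and 419, against 363 and 299 in Uninduced samples. These arrays did not overlap, and the difference was 0.52 ± 0.18 (adjusted p = 0.055). Without Protoplast Induced 2 or without Uninduced 1, with 1 array left in that group, it was 0.70 and 0.66. No neighbours in the order Protoplast Induced, CLV3p, WUSp, CLV3n, Uninduced and FILp differed past the threshold (adjusted p from 0.269 to 0.939). Between sorted and unsorted groups, that fit called only FILp against Protoplast Induced. The difference was -0.55 ± 0.20 (adjusted p = 0.0424), where 35.4% of all probe sets were called.

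CHR24 carries the synonyms ERCC6 and RAD26 in the RefSeq record, names of a human and a yeast remodeller of transcription-coupled DNA repair. Its signals were 605, 783 and 817 in CLV3p, 599 and 571 in WUSp, 415, 413 and 355 in FILp and 416, 464 and 476 in CLV3n. Every CLV3p and WUSp array lay above every FILp and CLV3n array, and CLV3p also lay above WUSp, with 605 as its lowest array and 599 as the highest of WUSp.

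CHR24 was higher in CLV3p than in CLV3n by 0.69 ± 0.17 (adjusted p = 0.012), or 1.62-fold, and higher than in FILp by 0.89 ± 0.17 (adjusted p = 0.00122), or 1.85-fold. Within the high bioC batch the difference from CLV3n was 0.65 and not called (adjusted p = 0.119), and CLV3p 3 exceeded CLV3n 3 in the low batch by 0.78. Without CLV3p 3 the difference from CLV3n was 0.61 and the call ended (adjusted p = 0.0533). The difference from FILp was 0.81 to 1.05 over the alternative runs and was called in each run with 2 or more arrays a group. The highest value was that of CLV3p 3 alone against the FILp arrays. Against WUSp CLV3p had 0.32 ± 0.19 (adjusted p = 0.248).

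WUSp exceeded FILp in CHR24 by 0.57 ± 0.19, just short of the threshold (adjusted p = 0.0543). It passed with a filter at the 60th percentile, with only the 2 groups in the fit, in the fit of 15 arrays and without CLV3n 1 and CLV3p 1 (adjusted p = 0.0478, 0.0273, 0.0261 and 0.0309). In unsorted material the gene had 297 and 317 in Protoplast Induced, against 404 and 397 in Uninduced, with no overlap and a difference of -0.39 ± 0.16 (adjusted p = 0.103). Protoplast Induced was the lowest of the 6 groups, and no neighbours in the order CLV3p, WUSp, CLV3n, Uninduced, FILp and Protoplast Induced differed past the threshold (adjusted p from 0.112 to 0.927). With all 15 arrays in the fit, CLV3p exceeded Protoplast Induced by 1.25 ± 0.17 and Uninduced by 0.86 ± 0.17 (adjusted p = 1.95e-05 and 0.00066). WUSp exceeded them by 0.93 ± 0.19 and 0.55 ± 0.19 (adjusted p = 0.00117 and 0.0398). CLV3n exceeded only Protoplast Induced, by 0.56 ± 0.17 (adjusted p = 0.0187), and FILp neither. For these called pairs 44.8%, 40.4%, 32.8%, 25.4% and 34% of all probe sets were called.

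CHR18 belongs to the SMARCAL1-type branch, which in humans anneals DNA strands at stalled replication forks. Its signals were 714, 681 and 685 in CLV3p, 254 and 441 in WUSp, 290.5, 291 and 255 in FILp and 599.98, 302 and 515 in CLV3n. The CLV3p arrays were close together and above all others, while CLV3n and WUSp arrays were spread widely, with CLV3n 2 and WUSp 1 low in their groups.

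CHR18 was higher in CLV3p than in FILp by 1.32 ± 0.25 (adjusted p = 0.0011), or 2.49-fold, and CLV3p 3 exceeded the FILp arrays of its batch by 1.30. It was higher than in WUSp by 1.05 ± 0.28 (adjusted p = 0.0124), or 2.07-fold. Without WUSp 1 the difference from WUSp was 0.65 and without WUSp 2 it was 1.45, with a single WUSp array left each time. Within the high batch it was 1.06 (adjusted p = 0.0465). Against CLV3n CHR18 had 0.61 ± 0.25, which was not called (adjusted p = 0.123), and 0.78 with arrays centred on their medians, which was (adjusted p = 0.0385). FILp lay below CLV3n, with a difference of -0.71 ± 0.25 (adjusted p = 0.13), which without CLV3n 2 was -0.999 and called (adjusted p = 0.0294).

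In unsorted material CHR18 had 219 and 183 in Protoplast Induced and 283 and 209 in Uninduced, with overlap and a difference of -0.28 ± 0.21 (adjusted p = 0.372). These 2 groups were the lowest of the 6, and no neighbours in the order CLV3p, CLV3n, WUSp, FILp, Uninduced and Protoplast Induced differed past the threshold (adjusted p from 0.0972 to 0.708). With all 15 arrays in the fit, CLV3p exceeded Protoplast Induced by 1.79 ± 0.27 and Uninduced by 1.51 ± 0.27 (adjusted p = 5.71e-05 and 0.000296). CLV3n exceeded them by 1.18 ± 0.27 and 0.90 ± 0.27 (adjusted p = 0.00338 and 0.0212). For these pairs 44.8%, 40.4%, 34% and 27.2% of all probe sets were called. WUSp and FILp differed from neither unsorted group past the threshold.

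**Figure D2:**
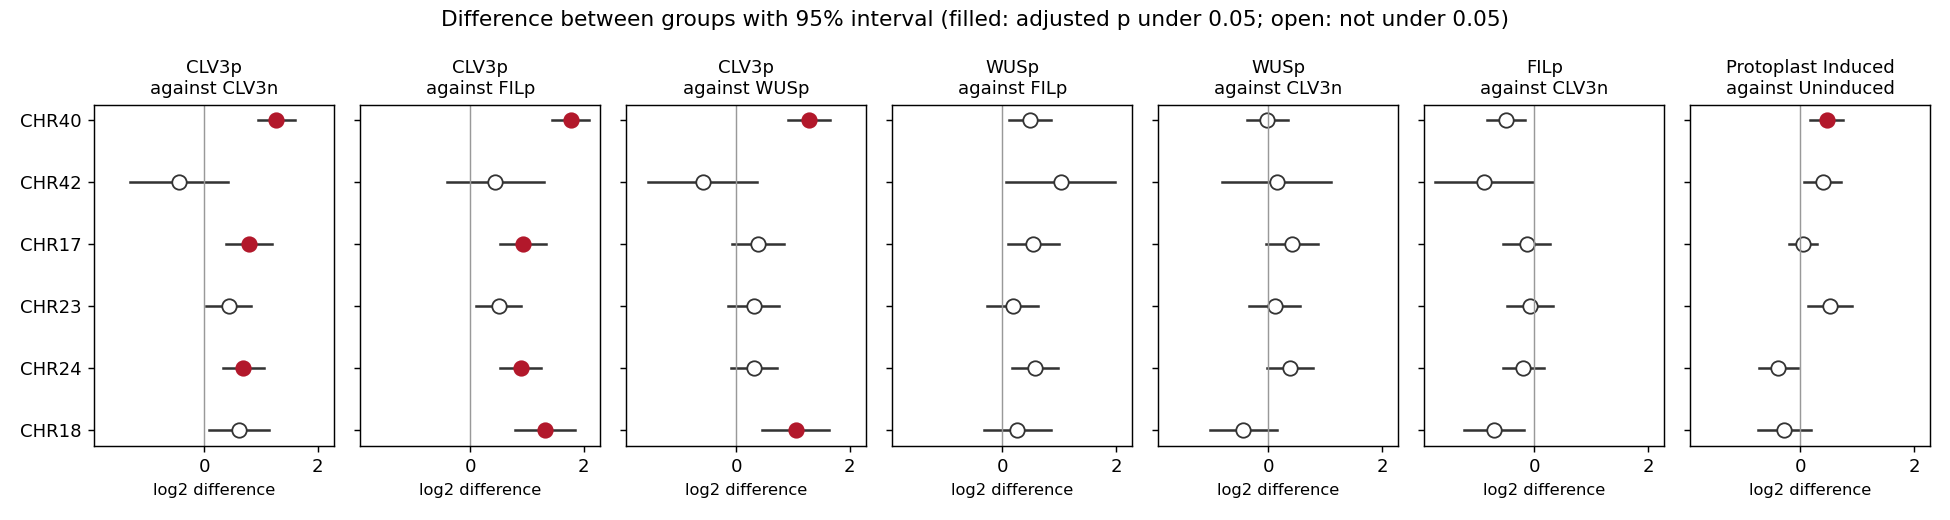
Log2 difference of the 6 tested CHR genes in each of the 7 comparisons, first group minus second, with 95% intervals. Filled red points have an adjusted p under 0.05. All 9 calls among sorted cells lie in the 3 comparisons of CLV3p, and CHR40 is called in each of those.

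In the 3 comparisons of sorted cells without CLV3p, limma called 0 of 6 members each time, where 15% of all tested probe sets were called for WUSp against FILp, 19.2% for WUSp against CLV3n and 4.3% for FILp against CLV3n. For WUSp against FILp, 4 of 6 members had an unadjusted p under 0.05, all of them higher in WUSp, beside 27.6% of all tested probe sets and 13.2% with a higher signal in WUSp. For WUSp against CLV3n 0 members had one, beside 33.7% of all. For FILp against CLV3n 3 members had one, all lower in FILp, beside 18.8% of all and 10.3% with a lower signal in FILp. All 6 members had a positive difference for WUSp against FILp and all 6 a negative one for FILp against CLV3n, with medians of 0.52 and -0.35, beside -0.03 and -0.01 over all tested probe sets. The FILp arrays are shared by these comparisons. In the protoplast pair 1 of 6 was called, where 21.9% of all 13911 tested probe sets were called, 10.5% higher and 11.4% lower. An unadjusted p under 0.05 was found for 4 of 6 members and 35.6% of all.

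All 6 members had arrays of CLV3p and CLV3n that did not overlap, as did 27.7% of all tested probe sets. For CLV3p and FILp the count was 5 of 6 (39.5% of all probe sets) and for CLV3p and WUSp 4 of 6 (52.2%). It was 3 of 6 for WUSp and FILp (52%), 2 of 6 for WUSp and CLV3n (50.2%), 4 of 6 for FILp and CLV3n (25.1%) and 4 of 6 for the protoplast pair (63.5%).

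**Figure D3:**
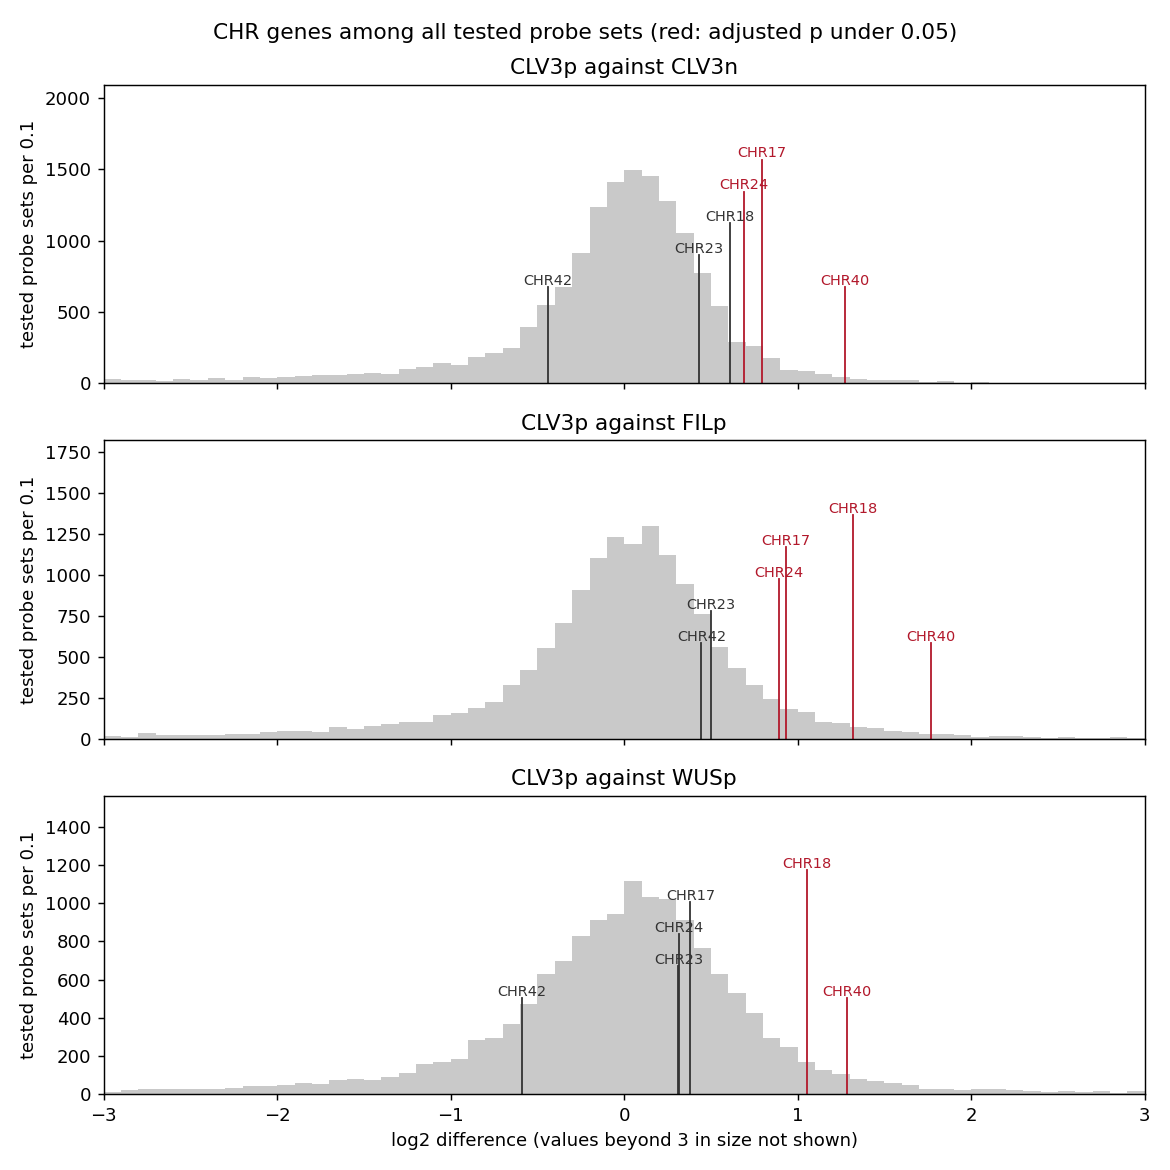
Histogram of the log2 difference of all 15052 tested probe sets for CLV3p against CLV3n, FILp and WUSp (bins of 0.1), with the 6 tested CHR genes as vertical lines, whose heights carry no value. CHR40 lies at 1.27, 1.77 and 1.28 in the right tail, and CHR42 lies left of 0 against CLV3n and WUSp.

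Other measured genes moved with the CLV3p population. All 4 photosynthetic marker genes (LHCB4.1, PRK, RCA and PORB) were lower in CLV3p than in each of the other sorted populations. Their summed signal was 1661 to 2108 in CLV3p, 6829 to 7836 in WUSp, 4668 to 7522 in FILp and 4656 to 5534 in CLV3n, and no marker was at 0. The YABBY genes YAB3 and YAB5 summed to 21.4 to 84.1 in CLV3p, 53.7 to 55.4 in WUSp, 790 to 932 in FILp and 275 to 340 in CLV3n. Both were called lower in CLV3p against FILp and CLV3n, and neither was against WUSp. Of the boundary genes, PTL had 8.56 to 24.5 in CLV3p, 28.6 to 59.998 in WUSp, 301 to 390 in FILp and 254 to 353 in CLV3n, and it was called lower in CLV3p against each. LAS had 67.6 to 98.6 in CLV3p, 50.8 to 59.9 in WUSp, 75.6 to 87.8 in FILp and 166 to 216 in CLV3n, and it was called lower in CLV3p against CLV3n only, with -0.06 ± 0.29 against FILp (adjusted p = 0.915). Of the epidermal genes, FDH had 48.4 to 92.4 in CLV3p, 524 to 690 in WUSp, 736 to 1088 in FILp and 339 to 617 in CLV3n. Its differences were -3.06 ± 0.31, -3.61 ± 0.28 and -2.81 ± 0.28 against WUSp, FILp and CLV3n (adjusted p = 6.78e-06, 2.47e-07 and 5.92e-06). CR4, the other epidermal gene, had 557 to 722 in CLV3p, 163 to 170.3 in WUSp, 502 to 646 in FILp and 437 to 476 in CLV3n. It was higher in CLV3p than in WUSp by 1.91 ± 0.19 (adjusted p = 4.61e-06), and its differences from FILp and CLV3n were 0.18 ± 0.17 and 0.45 ± 0.17 (adjusted p = 0.509 and 0.101). The meristem genes ULT1 and POL were both higher in CLV3p, with sums of 5002 to 7684 in CLV3p, 2768 to 3832 in WUSp, 2609 to 3555 in FILp and 2701 to 3794 in CLV3n. In the protoplast pair, where CHR40 was called, FDH, LHCB4.1 and RCA were lower in Protoplast Induced (-0.46 ± 0.14, -0.81 ± 0.15 and -0.44 ± 0.12; adjusted p = 0.0345, 0.00449 and 0.0224) and ULT1 was higher (0.39 ± 0.12; adjusted p = 0.0368). The part of these marker differences in the CHR values was not tested.

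Few partners of the CHR proteins could be set beside them. The 25 SNF2 genes listed under other symbols include MINU2 (CHR23) and CLSY2 (CHR42), already followed as members. Outside the members, 4 had a probe set with 1 gene, INO80, ATRX, ETL1 and RAD5. limma called 0 of 4 for CLV3p against CLV3n and against FILp, where 13.8% and 22.6% of all tested probe sets were called. Each comparison had 1 unadjusted p under 0.05, with medians of 0.18 and 0.13. Against WUSp the post-replication repair gene RAD5 was higher in CLV3p (0.84 ± 0.25; adjusted p = 0.0238) and INO80, a remodeller that moves and exchanges nucleosomes, was lower (-0.54 ± 0.18; adjusted p = 0.0442). INO80 was also higher in WUSp than in CLV3n (0.77 ± 0.18; adjusted p = 0.00939). In the protoplast pair and for FILp against CLV3n limma called 0 of 4, with 0 unadjusted p under 0.05, and for WUSp against FILp 0 of 4, with 2. Of all tested probe sets 21.9%, 4.3% and 15% were called there.

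Of 5 measured partner subunits of SNF2 complexes, SWI3A, a core subunit of SWI/SNF complexes, was higher in CLV3p than in CLV3n, FILp and WUSp, by 0.57 ± 0.18, 0.53 ± 0.18 and 0.62 ± 0.20 (adjusted p = 0.0425, 0.042 and 0.0329). It was the 1 subunit called higher in each of these comparisons, beside 4.88%, 10.5% and 11.7% of all tested probe sets. Its CLV3p signals were 867, 634 and 595, the highest on CLV3p 1, an array of high actin ratio. The comparisons share the CLV3p arrays, and no value without CLV3p 1 is given for SWI3A. SWC2, of the SWR1 complex that inserts the histone variant H2A.Z, was lower in CLV3p than in WUSp (-0.76 ± 0.25; adjusted p = 0.0368). CHC1, a SWI/SNF subunit, was lower in WUSp than in CLV3n (-0.75 ± 0.19; adjusted p = 0.0138). In the protoplast pair CHC1 and CHB3 were lower in Protoplast Induced (-0.42 ± 0.14 and -0.59 ± 0.17; adjusted p = 0.0468 and 0.0271). For FILp against CLV3n and WUSp against FILp limma called 0 of 5 subunits, with 2 and 1 unadjusted p under 0.05. Of all tested probe sets 4.3% and 15% were called in these.

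For RNA-directed DNA methylation, the pathway of CHR40 and CHR42, 31 genes were listed. For enzymes of DNA methylation and demethylation and their partners, 19 were listed. Outside the CHR members, 1 gene of each list was found with a probe set of 1 gene. These single genes give no reading of the pathway as a whole. CLSY2, which is CHR42, is among the 31. Listed genes on probe sets without a gene symbol (8730) or with several (503) could not be read. The histone demethylase gene LDL2 had -0.03 ± 0.27, 0.48 ± 0.27 and 0.21 ± 0.31 for CLV3p against CLV3n, FILp and WUSp, with no call (adjusted p = 0.956, 0.236 and 0.659). DME, a DNA glycosylase that removes methylated cytosine, had 0.03 ± 0.21, -0.15 ± 0.21 and 0.09 ± 0.23, with no call either (adjusted p = 0.952, 0.646 and 0.822). Neither was called in the other 4 comparisons, where both had unadjusted p above 0.05.

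Of 7 measured core histone and DNA replication genes (52 listed), 1 was higher in CLV3p than in CLV3n, 2 than in FILp and 6 than in WUSp, and none was lower. Among all tested probe sets 4.88%, 10.5% and 11.7% were called higher in these comparisons. POLA3, a DNA primase subunit, was called in all 3 comparisons (0.61 ± 0.18, 1.16 ± 0.18 and 0.87 ± 0.20; adjusted p = 0.0362, 0.000229 and 0.00595). The H2B genes HTB2, HTB1 and HTB4 had the largest called differences from WUSp, at 1.28 ± 0.19, 1.13 ± 0.15 and 0.96 ± 0.23 (adjusted p = 0.000174, 5.89e-05 and 0.00656). WUSp was lower than FILp and than CLV3n in 3 of these 7 genes each, where 15% and 19.2% of all tested probe sets were called in either direction. Of those calls 48.6% and 43.5% were higher in WUSp, and the rest lower. FILp against CLV3n had 0 calls by limma, beside 4.3% of all, and 2 unadjusted p under 0.05, beside 18.8%. Protoplast Induced was lower than Uninduced in 2, beside 11.4% of all called lower.

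The members differed in how closely they ran together over the arrays. Over the 11 sorted arrays, which share the 4 groups, Pearson's r of log2 signals was 0.89 for CHR17 and CHR24, 0.85 for CHR24 and CHR40 and 0.82 for CHR17 and CHR40. CHR42 had r between -0.05 and 0.16 with the 5 other tested members. With the unsorted arrays added (15 in all), r was 0.63 for CHR24 and CHR40 and 0.21 for CHR23 and CHR24, which was 0.71 over the sorted arrays. These values are descriptions, since the arrays share groups and preparation.

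Among 7343 other genes with a tested probe set, those closest to CHR40 over the 15 arrays were AT4G37110, AT1G31760 and ATSMC2, a condensin subunit gene, with r of 0.93, 0.92 and 0.92. AT4G37110 had mean signals of 1856 in CLV3p, 916 in WUSp, 638 in FILp and 803 in CLV3n. For CHR17 they were AT5G63700, AT4G17150 and EIN3, a transcription factor of ethylene signalling (0.92, 0.92 and 0.91). For CHR24 they were UGT78D2, a flavonoid glucosyltransferase gene, AT5G14610 and AT4G27980 (0.95, 0.95 and 0.93). For CHR18 they were AT2G33730, the ubiquitin protease gene UBP21 and AT2G17410 (0.95, 0.95 and 0.94). The genes were picked by r, so it is a description of them.

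**Figure D4:**
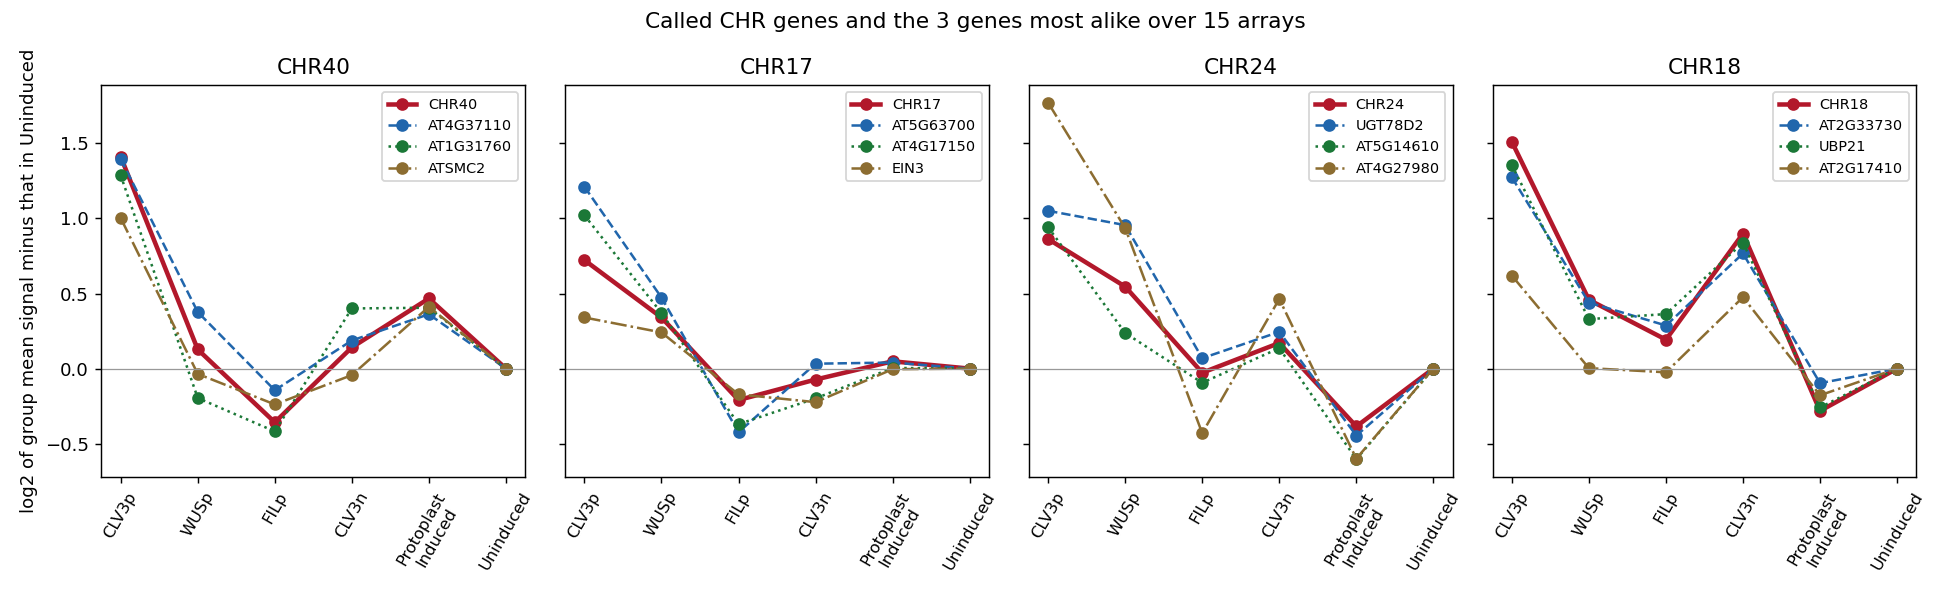
Log2 of the group mean signal minus that in Uninduced for CHR40, CHR17, CHR24 and CHR18 (red) and the 3 genes with the highest Pearson correlation to each over 15 arrays. Lines join the groups only to guide the eye. CHR40 and its 3 genes are highest in CLV3p, and CHR24 and its genes are lowest in Protoplast Induced.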

How the data were processed

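The authors deposited 1 signal per probe set and array, an intensity on a linear scale made with MAS5, which the submitters' processing notes name without a version. The mean of each array's values between the 2nd and 98th percentile was checked to be 500. Precision is limited by having 2 or 3 arrays a group. Of 22810 probe sets, the AFFX controls were set aside. Log2 signals were tested with limma 3.58.1 in R 4.3.3 (lmFit, eBayes with trend and robust, two-sided, Benjamini-Hochberg threshold 0.05). A probe set entered a fit if 2 or more of its arrays exceeded the percentile 40 of that array. One fit held the 11 sorted arrays (15052 probe sets), one the 4 arrays of the protoplast pair (13911), and a fit of all 15 (15436) gave the order of groups. The code was tested on simulated data. Every CHR gene is named, as are up to 3 called genes of each list and comparison, plus the single measured genes of 2 lists and every marker gene with a difference given, chosen after their values were seen. A list gene with several probe sets is represented by the brightest. Genes of the closest pattern are the 3 with the highest Pearson correlation over 15 arrays for each called member. The members, lists and alternatives were chosen with earlier results of these data known. Same-numbered replicates were not treated as pairs.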

Additional observations from a re-analysis of the deposited data

How the results depend on the processing

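The 10 called differences of CHR genes kept their sign in all 175 alternatives run and their call in 164, and CHR40 in the 3 comparisons of CLV3p was called in each. These numbers count fits in which a group keeps 1 array (CLV3p and CLV3n in the low bioC batch, and a group of 2 without one of them), whose spread is then assumed to be that of the other groups. The 32 uncalled differences had 520 alternatives, of which 20 were called and 13 changed sign, with neither sign called. The cause of these changes was not tested. Centring arrays on their medians gave 5 calls for CLV3p against CLV3n, against 3 without, and 0 for the protoplast pair, against 1. The median over all tested probe sets shifted by 0.17 for CLV3p against CLV3n and 0.14 for WUSp against CLV3n, and the share of calls that were higher to 59.8%, 61.4%, 54.0% and 34.1% for CLV3p against CLV3n, WUSp against CLV3n, FILp against CLV3n and the protoplast pair, where it had been 35.3%, 43.5%, 40.3% and 47.9%. With it CHR40 had 0.13 for WUSp against CLV3n, CHR23 0.026 for FILp against CLV3n and CHR17 -0.035 in the protoplast pair, each a change of sign. The protoplast pair also had 0 calls with no filter, with plain eBayes and in the fit of all 15 arrays, beside 9.75%, 14.2% and 4.71% of all. For WUSp against FILp, where 0 members were called, 1 was with a filter at the 60th percentile, 2 in the fit of 15 arrays, 2 with only those groups in the fit, 1 with the bioC batch as a block and 1 without CLV3n 1 and CLV3p 1. The bioC block also gave 1 call for WUSp against CLV3n, and the fit of 15 arrays 1 for FILp against CLV3n, beside 26.3% and 6.69% of all. Same-numbered arrays of CLV3p and CLV3n had correlated deviations for numbers 1 and 3 (r 0.35 each) but not for 2 (0.04), and no other of the 17 same-numbered pairs was over 0.1, so the numbers were not taken as pairs. CLV3p 1 and CLV3n 1 are also the arrays of high actin ratio, and CLV3p 3 and CLV3n 3 those of low bioC signal. With the replicate number as a block CLV3p against CLV3n had 3 calls, as without it, WUSp against FILp had 1 call and the protoplast pair had 2. Of all tested probe sets 15.2%, 14.8% and 26.3% were called with that block. CHR40 then had 0.0096 for WUSp against CLV3n. Arrays were also left out in turn, and runs that keep 1 array in a group are not counted here. CLV3p against CLV3n had 1 to 3 calls (1 without CLV3p 3) and CLV3p against FILp had 4. Of all tested probe sets 9.84% to 14.7% and 16.3% to 21.4% were called in these runs. CLV3p against WUSp had 2 without a CLV3p array, beside 19.2% to 23.8%. WUSp against FILp had at most 1 without a FILp array, beside 9.43% to 12.6%. WUSp against CLV3n had 0 without a CLV3n array, beside 14.1% to 17.7%. FILp against CLV3n had 0 to 1, beside 2.37% to 4.54%. Over the same settings the log2 difference crossed 0 for CHR42 in CLV3p against FILp (-0.15 to 0.85), for CHR18 and CHR23 in WUSp against FILp (-0.13 to 0.66 and -0.038 to 0.41), and for CHR23, CHR40 and CHR42 in WUSp against CLV3n (-0.11 to 0.34, -0.12 to 0.096 and -0.28 to 0.57). It also did for CHR17 and CHR23 in FILp against CLV3n (-0.24 to 0.014 and -0.18 to 0.0089) and for CHR17 in the protoplast pair (-0.023 to 0.12). Over all probe sets, calls for CLV3p against CLV3n numbered 1136 in the high bioC batch alone, against 2082. Without WUSp 1 and without WUSp 2 they numbered 1628 and 2087 for CLV3p against WUSp (3616 with both), 980 and 1246 for WUSp against FILp (2253) and 1035 and 1318 for WUSp against CLV3n (2883), and WUSp against FILp had 1413 without FILp 3. FILp against CLV3n had 647 calls, 1032 in the fit of 15 arrays and 404 with the bioC block. It had 430 without CLV3n 1 and CLV3p 1, and 355 to 418 without CLV3n 1 or any FILp array. The protoplast pair had 3052, 1972 with plain eBayes, 727 in the fit of 15 arrays, and 1576 and 1871 without Protoplast Induced 1 and 2.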
